A study of Mus musculus with 6 samples.

Results

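RAB proteins are small GTPases that act as switches of membrane traffic. Each one binds the membrane of a given compartment when loaded with GTP, recruits tethers, motors and fusion factors there, and is switched off when its GTP is hydrolysed. Exchange factors load them with GTP, GTPase-activating proteins switch them off, and lipid anchors added by a geranylgeranyl transferase let them attach to membranes. In a cytokine-secreting lymphocyte the family covers the route of new proteins from the endoplasmic reticulum (ER) through the Golgi to the surface, and the routes of receptors into endosomes and back.

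The RAB genes were taken as the rows of the deposited table whose symbol is Rab followed by a number and at most a letter and a digit. Of 59 such rows 1 was left out, so that 58 of the 25865 genes are described, 24 of them with secretory, 18 with endosomal, 10 with recycling and 6 with other functions. The samples were group 2 innate lymphoid cells (ILC2s), lymphocytes that make type 2 cytokines, sorted from the large intestine of C57BL/6 mice. All were grown for 5 days in complete IMDM with IL-33, IL-25, IL-7 and IL-2 (10 ng/mL of each). The 3 toyocamycin samples then received that adenosine analogue, an inhibitor of the RNase activity of IRE1, for 16 h, and the 3 Control samples received vehicle. No label names a transgene, an animal's age, a dose or a pooling of animals. Values are normalised read counts, that is, reads per gene divided by 1 scaling factor per sample, given as mean ± SD (n = 3).

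Between 22.3 M and 36.7 M reads were assigned to genes in each sample. The defining markers of ILC2s were present, with a summed level of 366900 to 380000 in Control and 372000 to 403900 with toyocamycin over 10 genes, of which 4 rose and 6 fell. Markers of mast cells (6 genes, summed level 0 to 13.2) and of NK cells and ILC1s (5 genes, 0 to 9.65) were near 0, with Fcer1a, Mrgprb2 and Klra8 listed at 0 in every sample. Summed levels were 190 to 240 for 6 T cell markers, 174 to 233 for 5 ILC3 markers, 190 to 248 for 6 epithelial markers and 404 to 869 for 6 markers of macrophages and dendritic cells. Those of B and plasma cells went from 68.5 to 110 in Control to 310 to 322 with toyocamycin, with a rise of Sdc1. Those of fibroblasts and endothelial cells went from 1271 to 1468 in Control to 712 to 935, with 2 of 6 genes lower. Most of that sum was Pecam1, which fell from 1012 ± 39.7 to 565 ± 40.5. Col1a2 fell from 115.5 ± 10.5 to 58.1 ± 8.61, and Col1a1, Col3a1, Pdgfra and Cdh5 did not pass. The part of these other cell types in the RAB results was not tested. In these bulk samples fewer cells of a type and less RNA per cell cannot be told apart.

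Toyocamycin-treated ILC2s had more transcripts of many RAB genes and far less of others, and the members that moved apart included close relatives. Rab8b, Rab4a and Rab5a rose 3.89-fold to 4.79-fold, while Rab8a, Rab4b and Rab5b fell 2.08-fold to 4.43-fold. The level of Rab4b is uncertain, as its reads may be divided with an overlapping gene. Of the granule genes, Rab37 fell 8.84-fold and Rab3d 6.30-fold, while Rab27b rose 1.67-fold (a call that ended after GC and length correction) and Rab26 and Rab3a did not pass. Of the 52 RAB genes with a mean of at least 1, 25 were higher, 13 were lower and 14 did not pass, by limma at an adjusted p under 0.05 over all genes. The 38 called genes are 73.1% of those tested, where 65.9% of all 16223 genes tested were called (32.8% higher and 33.1% lower). A change of at least 2-fold was called in 20 RAB genes (38.5%), close to the 37.5% of all genes. Groups did not overlap in 38 RAB genes (73.1%), against 69.1% of all genes. The median log2 change was 0.28 in RAB genes and −0.03 in all genes. That RAB median varied between settings. It was −0.0035 once transcript GC content and length were corrected (all genes −0.02) and 0.06 without the filter (all genes −0.02). With equal totals both medians were lower, at −0.07 for RAB genes and −0.36 for all genes. The RAB median was 0.11 by DESeq2 (all genes 0.007), 0.33 with quantile normalization (all genes 0.03) and 0.46 by edgeR (all genes −0.07). It was 0.50 with a mean of at least 10 (all genes −0.03) and 0.20 to 0.40 with 1 sample left out. Among the 41 RAB genes with a mean of at least 50, 61.0% were higher and 31.7% lower, against 43.3% and 41.1% of the 10818 genes of that level. In all, 92.7% of these RAB genes were called, against 84.4% of the genes of that level, and 48.8% were called with a change of at least 2-fold, against 42.3%.

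Scaling to equal totals shifted the median of all genes to −0.36 on the log2 scale, and only 36.9% of their calls were then higher (49.7% as deposited). The 52 RAB genes tested were split into 21 higher and 17 lower on that scale, against 24.9% and 42.5% of all genes. No RAB call turned around there. Quantile normalization gave 26 higher and 13 lower of 52 RAB genes, against 33% and 31.8% of all genes. By edgeR 24 and 13 of 43 RAB genes were called, against 38.5% and 41.2%. By DESeq2 it was 25 and 13 of 58 RAB genes, not all with an adjusted p, against 29.8% and 29.2%. RAB transcripts took 0.357% ± 0.005 of Control reads and 0.587% ± 0.005 of those with toyocamycin. Secretory members went from 0.178% ± 0.0008 to 0.367% ± 0.004. Rab8b alone went from 0.0489% ± 0.0011 to 0.184% ± 0.005, and the other 23 secretory genes together from 0.129% ± 0.002 to 0.183% ± 0.001. The secretory median log2 change was −0.02, with 9 higher and 5 lower of 21 tested (42.9% and 23.8%, against 32.8% and 33.1% of all genes). Endosomal members were at 0.113% ± 0.003 and 0.117% ± 0.001, with ranges of 0.111% to 0.117% and 0.116% to 0.118%, which overlap.

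**Figure D1:**
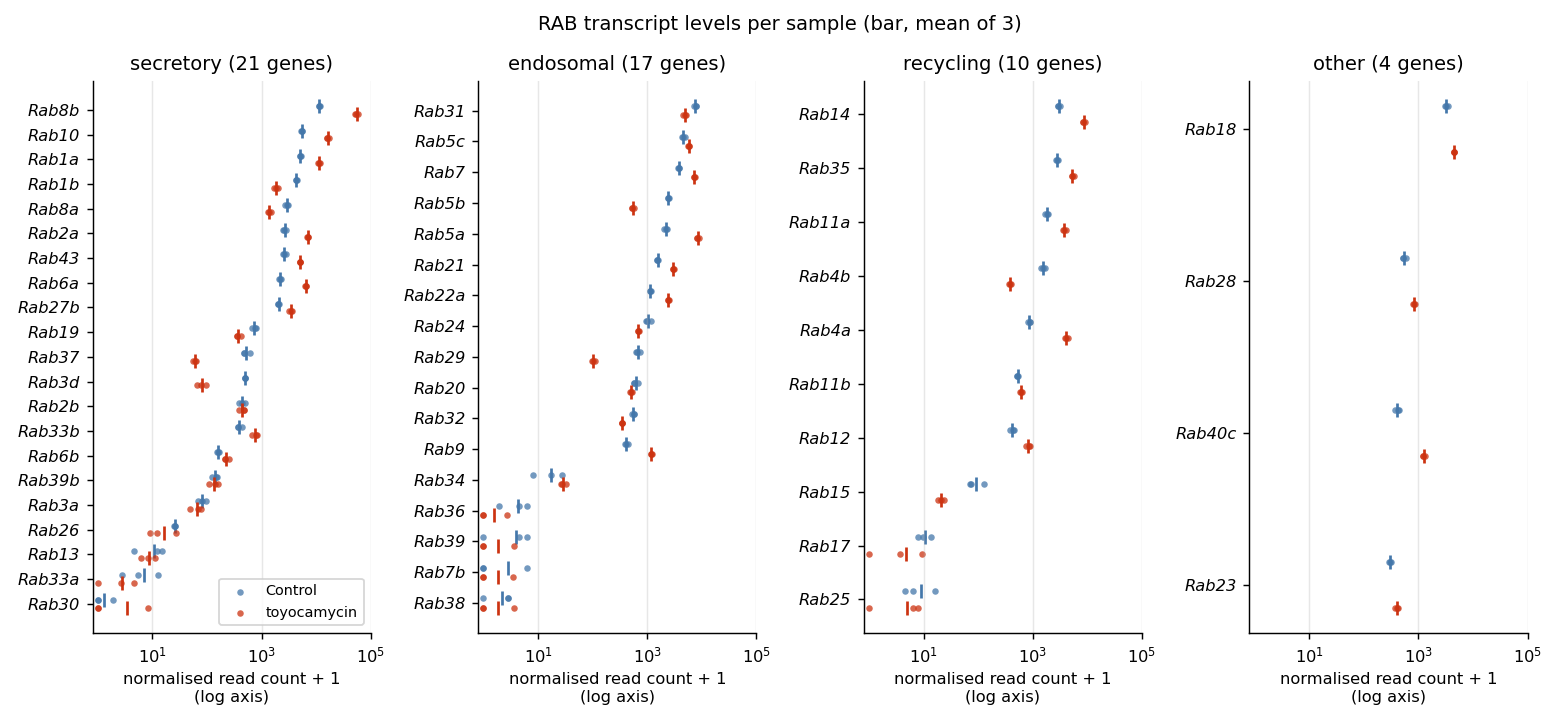
Normalised read count + 1 (log axis) of the 52 RAB genes with a mean of at least 1, by role and ordered by the Control mean. Points are samples, vertical bars the mean of 3. Rab8b has the highest values in both groups, and Rab37, Rab29 and Rab5b are among the genes whose toyocamycin points lie far to the left.

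**Figure D2:**
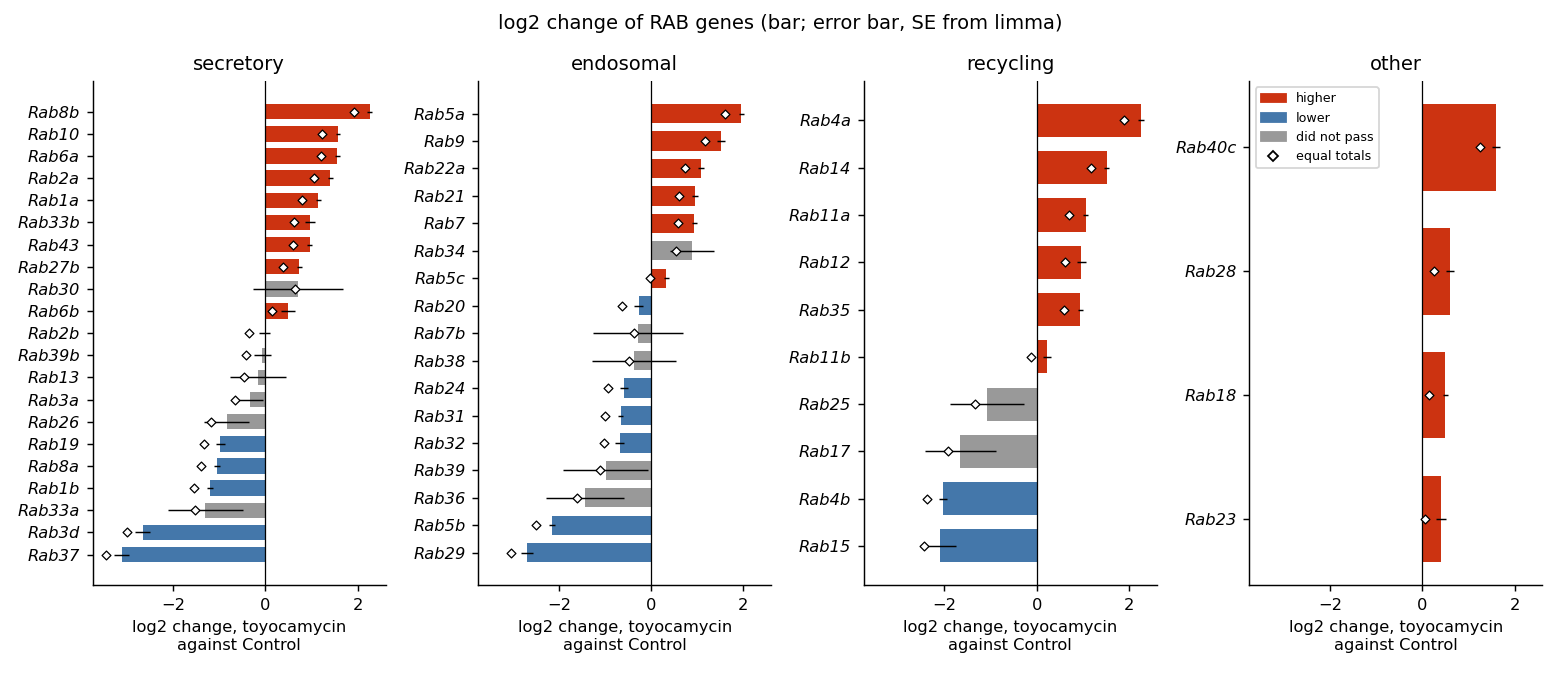
log2 change of each of the 52 genes (bars) with its SE from limma, coloured by call. Diamonds give the change with samples scaled to equal totals. Rab8b at 2.26 and Rab4a at 2.25, alike within their SE, lie at the upper end of the range and Rab37 at −3.11 at the lower end.

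The secretory RAB genes held the most abundant member and the most negative change. Rab8b encodes a GTPase of carriers that leave the Golgi and recycling endosomes for the cell surface. It was at 11430, 11751 and 11212 in the Control samples and at 52444, 57648 and 54683 with toyocamycin. Every treated sample lay far above every Control sample, and the level rose 4.79-fold (log2 change 2.26, SE 0.051, limma adjusted p = 9.16e-19). Per kb of reference transcript Rab8b was also the highest RAB gene, at 2422 ± 57.3 normalised reads in Control and 11605 ± 551 with toyocamycin. In Control, Rab5c (2394 ± 130 per kb) did not differ from it beyond their spread, and Rab1b (2248 ± 33.4) followed. With toyocamycin the next gene, Rab10, was at 4601 ± 180.

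A further 4 abundant secretory genes rose. Rab10, which acts with the RAB8 proteins in delivery to the plasma membrane, was at 5228, 5502 and 5559 in Control and at 16069, 16836 and 15582 with toyocamycin, a 2.98-fold rise. Rab6a, a GTPase of carriers within and from the Golgi, rose 2.94-fold from 2176 ± 105 to 6397 ± 186. Rab2a, which acts between the ER and the Golgi, rose 2.65-fold from 2629 ± 122 to 6957 ± 238. Rab1a, needed for ER-to-Golgi transport, was at 5019, 5051 and 5315 in Control and at 11005, 11886 and 11207 with toyocamycin, a 2.22-fold rise. For these 4 genes the log2 changes ran from 1.15 to 1.57, and the groups lay apart by more than the spread within either.

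The remaining higher secretory genes changed less. Rab33b, a Golgi GTPase with a role in autophagy, rose 1.96-fold from 390.4 ± 38.1, and Rab43, also of the Golgi, 1.94-fold from 2605 ± 130. Most of the annotated exon sequence of Rab43 (75.4%) is shared with an overlapping gene on the same strand, so its reads may be divided between them. Rab27b, which helps dock secretory granules and exosome-bearing compartments, rose 1.67-fold from 2054 ± 52.7 to 3430 ± 206. When values were corrected for the GC content and length of transcripts, its call ended (log2 change 0.09, adjusted p = 0.155). Rab6b, a relative of Rab6a known mainly from brain, went from 157.5 ± 9.09 to 222.8 ± 22.1, a call that ended with equal totals (log2 change 0.15, adjusted p = 0.399).

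Rab37, known from mast cells as a GTPase of secretory granules, was at 473.9, 474.8 and 599.4 in Control and at 59.4, 55.0 and 60.7 with toyocamycin. Every treated sample lay far below every Control sample (log2 change −3.11, SE 0.16, adjusted p = 3.27e-13). Rab3d, which acts in granule exocytosis of secretory cells, was at 485.7, 487.1 and 505.5 in Control and at 76.6, 63.5 and 94.7 with toyocamycin (log2 change −2.66, SE 0.16, adjusted p = 4.49e-12). Both granule genes were thus low in every treated sample.

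The close relatives of Rab1a and Rab8b went the other way from them. Rab1b was at 4361, 4234 and 4306 in Control and at 1870, 2018 and 1699 with toyocamycin, a 2.31-fold fall (log2 change −1.21, SE 0.063, adjusted p = 2.43e-13). Rab8a was at 2723, 2879 and 3080 in Control and at 1367, 1489 and 1316 with toyocamycin, a 2.08-fold fall (log2 change −1.06, SE 0.066, adjusted p = 5.98e-12). Neither gene had overlapping groups. Rab19, less studied, fell 1.97-fold from 738.7 ± 54.5 to 374.4 ± 35.4.

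Of the secretory genes, 7 did not pass. Rab2b, with 444.9 ± 55.5 and 439.8 ± 51.8, had a log2 change of −0.02 (adjusted p = 0.914). Equal totals made it a lower call (−0.36, adjusted p = 0.00973), and quantile normalization a higher one (0.30, adjusted p = 0.0347). Most of its annotated exon sequence (64.0%) overlaps genes on the opposite strand, and no label states whether the counting used strand. Rab39b, a gene known from neurons, had 138.8 ± 13.6 and 133.5 ± 23.6, with a log2 change of −0.07 that became 0.49 with quantile normalization (called higher, adjusted p = 0.0333). Rab3a, the synaptic vesicle member, had 79.97 ± 13.9 and 64.34 ± 15.6, and was called lower with equal totals (log2 change −0.67, adjusted p = 0.0359). Rab26, linked to secretory granules, had 24.55 ± 0.837 and 15.03 ± 9.83; lower calls appeared with equal totals (−1.17, adjusted p = 0.0407) and when toyocamycin replicate 2 was left out (−1.31, adjusted p = 0.0234). The others were rare. Rab13, known from epithelial junctions, had 9.48 ± 5.4 in Control and 7.58 ± 2.45 with toyocamycin (log2 change −0.16, adjusted p = 0.84). Rab33a had 5.9 ± 4.97 in Control and 1.78 ± 1.82 with toyocamycin (log2 change −1.31, adjusted p = 0.169). Rab30 had 0.302 ± 0.523 in Control and 2.43 ± 4.21 with toyocamycin (log2 change 0.71, adjusted p = 0.553). The synaptic genes Rab3b and Rab3c and the granule gene Rab44 stayed below a mean of 1 and were not tested, with 4 reads or fewer per group.

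Of 17 endosomal genes tested, 6 were higher and 6 lower (35.3% each), close to the 32.8% and 33.1% of all genes. The early endosome GTPase RAB5, which drives fusion of incoming vesicles, is encoded by 3 genes that did not move together. Rab5a was at 2002, 2184 and 2310 in Control and at 8250, 8826 and 8193 with toyocamycin (log2 change 1.96, SE 0.059, adjusted p = 3.98e-17). Rab5b was at 2364, 2358 and 2464 in Control and at 574.5, 534.4 and 514.8 with toyocamycin (log2 change −2.15, SE 0.071, adjusted p = 1.63e-16). Per kb of transcript they went from 915.1 (Rab5a) and 753.3 (Rab5b) normalised reads in Control to 3560 and 170.2 with toyocamycin, and the groups of neither gene overlap. Rab5c went from 4585 ± 249.2 to 5764 ± 145 (log2 change 0.33). Its direction turned under equal totals (−0.02, adjusted p = 0.729), and quantile normalization made it a lower call (−0.17, adjusted p = 0.00213). Some of the 50-base stretches of the Rab5b transcript (13%) also occur in another gene, Gm13991.

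Rab7 and 3 further endosomal genes rose. Rab7, which governs fusion of late endosomes with lysosomes, was at 3751, 3759 and 3729 in Control and at 7067, 7388 and 7056 with toyocamycin, a 1.91-fold rise. A pseudogene shares 14.5% of its 50-base stretches. Rab9, which returns cargo from late endosomes to the Golgi, rose 2.86-fold from 414.2 ± 25.9 to 1185 ± 49.7. Rab22a, of early endosomes, rose 2.11-fold from 1142 ± 21.1, and Rab21, which acts in integrin uptake, 1.94-fold from 1550 ± 36.3. Groups did not overlap in these 4 genes, and their changes were 0.59 to 1.17 on the log2 scale with equal totals.

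Rab29, a GTPase of the Golgi and of stressed lysosomes that recruits the kinase LRRK2, was at 653.3, 617.9 and 723.2 in Control and at 109.6, 97.4 and 99.6 with toyocamycin. That 6.51-fold fall was the most negative change among the 17 endosomal genes (log2 change −2.69, SE 0.13, adjusted p = 9.35e-14). Rab31, which acts between the Golgi and endosomes, fell 1.58-fold from 7646 ± 281 to 4850 ± 262. Rab32, of lysosome-related organelles, fell 1.60-fold from 554.3 ± 29.6 to 345.5 ± 3.78. Rab24, linked to autophagy, fell from 1027 ± 112 to 684.0 ± 18.6 (log2 change −0.58), although 62.4% of its exon sequence overlaps Prelid1 on the opposite strand. Rab20, of maturing phagosomes, went from 613.1 ± 54.3 to 507.1 ± 24.9 (log2 change −0.27, adjusted p = 0.0167). Its call ended when Control replicate 3 (−0.20) or toyocamycin replicate 1 (−0.24) was left out, under quantile normalization (−0.06) and with the GC and length correction (−0.03).

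Of the endosomal genes, 5 did not pass. Rab34, which positions lysosomes, had 16.55 ± 9.66 and 27.80 ± 3.31 (log2 change 0.88, adjusted p = 0.115) and was called higher when Control replicate 3 was left out (1.28), under quantile normalization (1.17) and with the GC and length correction (1.20). The other 4 had group means of 3.23 or less, near the floor of 3 reads per library (2.66 in Control and 3.38 with toyocamycin). Their log2 changes were −1.44 for Rab36, −0.99 for Rab39, −0.36 for Rab38 and −0.29 for Rab7b, with adjusted p-values of 0.146, 0.368, 0.751 and 0.814 by limma. Rab9b had 4 reads in Control, none with toyocamycin, and was not tested.

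In the recycling group 6 of 10 genes rose and 2 fell, where 32.8% of all genes rose and 33.1% fell. The RAB4 genes, which serve rapid return from early endosomes to the surface, moved apart. Rab4a was at 882.5, 827.6 and 871.5 in Control and at 4103, 4395 and 3826 with toyocamycin (log2 change 2.25, SE 0.065, adjusted p = 2.29e-17). Rab4b was at 1435, 1640 and 1533 in Control and at 376.4, 393.0 and 359.4 with toyocamycin (log2 change −2.03, SE 0.083, adjusted p = 5.07e-15). Per kb of transcript Rab4b was the higher in Control (1289 against 606.5) and Rab4a with toyocamycin (2895 against 315.6). Reads of Rab4b may be divided with an overlapping gene on the same strand, which shares 80.3% of its 50-base stretches, so its level is uncertain.

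Rab14, which acts between endosomes and the Golgi, rose 2.87-fold from 2975 ± 113 to 8544 ± 340, and Rab11a, the main GTPase of the slow recycling route, 2.09-fold from 1807 ± 90.5 to 3770 ± 267. Rab12, linked to recycling receptors and their breakdown, rose 1.96-fold from 423.0 ± 33.8, and Rab35, which acts in rapid recycling, 1.93-fold from 2758 ± 118 to 5322 ± 262. Rab11b was at 523.4 ± 12.9 and 613.8 ± 24.2 (log2 change 0.23, adjusted p = 0.0288), and its direction turned with equal totals (−0.12, adjusted p = 0.215). That call also ended by edgeR (0.19), after GC and length correction (0.07) and without Control replicate 2 (0.22), Control replicate 3 (0.22) or toyocamycin replicate 3 (0.20). Rab15, an inhibitor of endosomal uptake in other cells, fell from 128.7, 72.8 and 69.3 to 22.5, 19.5 and 17.0 (log2 change −2.09, SE 0.34, adjusted p = 1.40e-05), with no overlap although 1 Control sample was high. Rab17 and Rab25, known from epithelial cells, did not pass. Rab17 had 9.49 ± 2.9 in Control and 3.7 ± 4.33 with toyocamycin (log2 change −1.65, adjusted p = 0.0629). Rab25 had 7.96 ± 6.11 in Control and 4.02 ± 3.56 with toyocamycin (log2 change −1.08, adjusted p = 0.252). Rab17 was called lower with equal totals (−1.92, adjusted p = 0.0368) and when toyocamycin replicate 2 was left out (−2.42, adjusted p = 0.0149).

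All 4 tested genes of the other group were higher, as were 32.8% of all genes; after GC and length correction 2 of the 4 were. Rab40c, whose protein carries a SOCS box and joins a ubiquitin ligase, went from 410.5 ± 37.2 to 1240 ± 57.6, a 3.02-fold rise with a log2 change of 1.60 (SE 0.088, adjusted p = 7.58e-13). Rab28, known from cilia, rose 1.52-fold from 544.3 ± 36.7. Rab18, of lipid droplets and the ER, went from 3235 ± 231 to 4559 ± 10.6 (log2 change 0.50), but the call ended after GC and length correction (−0.06, adjusted p = 0.364), as it did under quantile normalization (0.03, adjusted p = 0.598). Rab23, an inhibitor of Hedgehog signalling, went from 303.5 ± 12.4 to 401.4 ± 28.2, a call that ended with equal totals (0.05) and after GC and length correction (0.23). Rab40b and Rab42 had 2 reads or fewer per group.

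Because both genes of a pair are scaled by the same factor, the ratio of related genes within a sample hardly depends on how the samples were scaled. GENCODE M21 (GRCm38) places Rab4a at chr8:123805985-123835287 (plus strand), Rab4b at chr7:27168424-27178896 (minus strand), Rab5a at chr17:53479234-53507680 (plus strand), Rab5b at chr10:128677175-128696264 (minus strand), Rab8a at chr8:72161200-72183904 (plus strand), Rab8b at chr9:66843664-66919687 (minus strand), Rab1a at chr11:20201432-20226856 (plus strand) and Rab1b at chr19:5099205-5107072 (minus strand). Ratios of normalised read counts + 1, not divided by length, were formed for 16 pairs of related genes tested in both members. Their values did not overlap between Control and toyocamycin in 13 pairs, and in 7 pairs 1 gene was called higher and the other lower. Some genes are in more than 1 pair. Of all genes with a mean of at least 50, 43.3% were called higher and 41.1% lower, so opposite calls can occur in many unrelated pairs too. The shares among unrelated pairs were not computed. With 3 samples against 3 the exact two-sided permutation test cannot go below p = 0.1, and these 13 pairs reached that value (0.123 after Benjamini-Hochberg adjustment over the 16 pairs). The log2 ratio of Rab4a to Rab4b went from −0.83 ± 0.14 to 3.44 ± 0.04, that of Rab5a to Rab5b from −0.15 ± 0.08 to 3.96 ± 0.10, and that of Rab8a to Rab8b from −1.99 ± 0.11 to −5.30 ± 0.06. As given above, the level of Rab4b in the first of these ratios is uncertain. Rab1a and Rab1b were near balance in Control (0.25 ± 0.05) and not with toyocamycin (2.61 ± 0.09). The pairs Rab2a and Rab2b, Rab6a and Rab6b, and Rab11a and Rab11b shifted by 1.42, 1.06 and 0.83 toward the first gene, which per kb was the higher one in Control too.

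**Figure D3:**
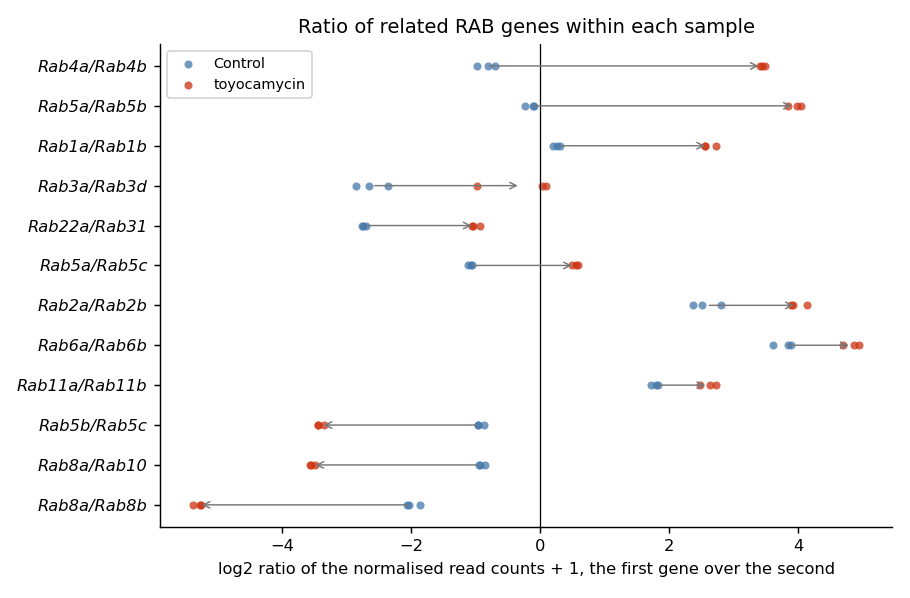
log2 ratio of the first gene over the second within each sample for the 12 pairs whose genes both have a mean of at least 50. Points are samples and arrows join the group means. The 3 Control and 3 toyocamycin points are apart in every pair drawn.

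Sums of related genes were formed per length. Rab1a and Rab1b together had 4178 ± 69.1 normalised reads per kb of reference transcript in Control and 5251 ± 240 with toyocamycin, a 1.26-fold difference. Within that sum Rab1a went from 46.2% ± 0.87 to 81.5% ± 0.98. For the RAB4 genes the sum was 1.69-fold higher and the Rab4a share went from 32.0% ± 2.2 to 90.2% ± 0.22. Both values rest on the uncertain level of Rab4b. For the RAB5 genes the sum was 1.66-fold higher, and the Rab5b share went from 18.6% ± 0.65 to 2.53% ± 0.14. The sum of Rab8a, Rab8b and Rab10 was 3.59-fold higher, with Rab8a going from 13.8% ± 0.71 to 1.85% ± 0.06 of it. These sums were not tested and, unlike the shares, depend on how the samples were scaled. With equal totals the log2 change of Rab1a was 0.80 in place of 1.15, and that of Rab1b −1.56 in place of −1.21. The sums on that scale are not given here.

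**Figure D4:**
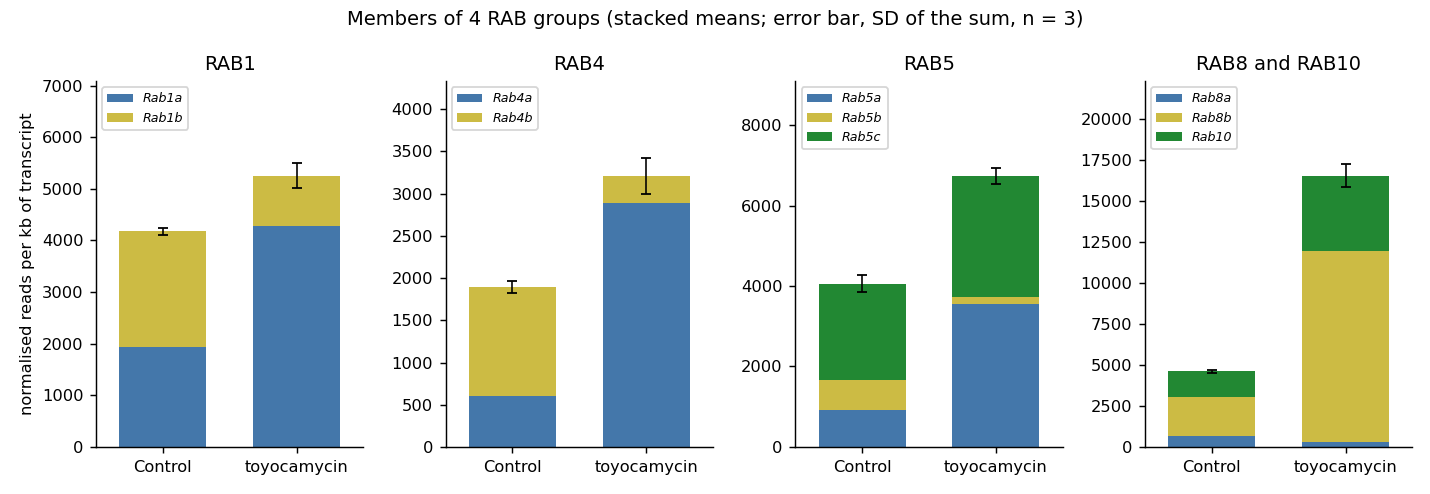
Stacked mean normalised reads per kb of reference transcript for the genes of 4 related groups in Control and toyocamycin samples. Error bars are the SD of the sum (n = 3). The sum of the RAB1 genes is 1.26-fold higher with toyocamycin while the share of Rab1a goes from 46.2% to 81.5%. The sums depend on how the samples were scaled.

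The promoters of 3 pairs that moved apart are shown so that the relatives can be compared; each line is the 150 bases upstream of the RefSeq start, 5′ to 3′ on the gene's strand (GRCm38.p6). The windows are Rab8a (chr8:72161050-72161199, plus strand), Rab8b (chr9:66919706-66919855, minus strand), Rab5a (chr17:53479084-53479233, plus strand), Rab5b (chr10:128696269-128696418, minus strand), Rab1a (chr11:20201262-20201411, plus strand) and Rab1b (chr19:5106997-5107146, minus strand). Capitals mark matches on either strand to the letters CACGTG of the E-box, GGGCGG of the GC box, TGACGTCA of the cyclic AMP response element (CRE), TATAAA of the TATA box, CCGGAAG of the ETS motif, and the letters of the CCAAT box. None of these motifs contains another.
Rab8a: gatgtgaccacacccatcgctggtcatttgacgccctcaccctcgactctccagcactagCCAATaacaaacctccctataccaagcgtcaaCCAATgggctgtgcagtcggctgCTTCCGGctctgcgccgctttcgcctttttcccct
Rab8b: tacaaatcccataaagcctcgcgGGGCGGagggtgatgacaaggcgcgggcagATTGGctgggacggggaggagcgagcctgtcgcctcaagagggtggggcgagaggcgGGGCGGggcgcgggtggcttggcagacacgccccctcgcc
Rab5a: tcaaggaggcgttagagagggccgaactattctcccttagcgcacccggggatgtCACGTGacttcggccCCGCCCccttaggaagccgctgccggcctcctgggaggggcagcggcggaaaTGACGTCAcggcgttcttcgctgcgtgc
Rab5b: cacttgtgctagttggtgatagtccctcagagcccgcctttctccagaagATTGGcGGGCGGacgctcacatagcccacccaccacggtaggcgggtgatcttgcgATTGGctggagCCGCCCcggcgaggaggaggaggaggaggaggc
Rab1a: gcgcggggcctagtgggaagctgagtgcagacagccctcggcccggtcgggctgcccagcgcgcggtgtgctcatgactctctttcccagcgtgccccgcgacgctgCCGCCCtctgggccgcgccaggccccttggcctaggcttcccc
Rab1b: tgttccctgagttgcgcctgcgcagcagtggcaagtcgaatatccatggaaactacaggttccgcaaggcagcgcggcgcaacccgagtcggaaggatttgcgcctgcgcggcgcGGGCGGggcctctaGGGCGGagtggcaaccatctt
The higher member Rab8b has 2 GC boxes and 1 CCAAT box, and the lower member Rab8a has 2 CCAAT boxes, 1 ETS motif and no GC box. Rab5a has 1 E-box, 1 GC box and 1 CRE, where Rab5b has 2 GC boxes and 2 CCAAT boxes. Rab1a has 1 GC box and Rab1b has 2. The Rab1b window lies upstream of the RefSeq start but reaches into the GENCODE span of the gene, and its GC boxes lie inside that span. Of the 58 RAB genes, 47 had at least 1 promoter in the RefSeq table, and a gene counts as holding a motif if any of its promoters does. A GC box was present in 15 of 21 higher and 7 of 12 lower members with a promoter, and in 31.3% of all 27025 genes with one. Those 27025 genes were not limited to the 16223 tested for expression, as the called members were. The motif shares among tested genes were not computed. A CCAAT box was present in 8 of 21 and 3 of 12, against 27.7% of all genes. An E-box was present in 2 and 1, a CRE in 1 and 0 and an ETS motif in 1 and 2, against 4.92%, 1.58% and 6.33% of all genes. No called member had a TATA box in this window, which 8.89% of all genes hold. Counted per promoter over all 32851, the shares were 28.6% for the GC box, 24.5% for the CCAAT box, 4.30% for the E-box, 1.36% for the CRE, 5.52% for the ETS motif and 7.57% for the TATA box. A match is a run of letters, not a site of binding.

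The makeup of the transcripts was set beside the calls. The median GC content of the reference transcript was 45.6% in the 25 higher genes (37.9% to 56.9%) and 52.3% in the 13 lower genes (47.7% to 59.2%), and the ranges overlap. Over all genes the medians were 48.2% in higher and 52.2% in lower genes. Median 3′ untranslated lengths were 2014 bases in higher and 1303 bases in lower RAB genes, against 1271 and 858 over all genes. Across the 41 RAB genes with a mean of at least 50, the log2 change and transcript GC content had a Pearson r of −0.47 and a Spearman rho of −0.49. The same values across 10577 genes of that level were −0.24 and −0.26. These are correlations across genes of the same 6 libraries, and genes are not independent replicates. With GC content and length corrected in each sample, 22 of 52 RAB genes were higher and 12 lower, against 32.8% and 33% of all genes. Rab4a and Rab40c, both higher, have a GC content of 53.7% and 56.9%.

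**Figure D5:**
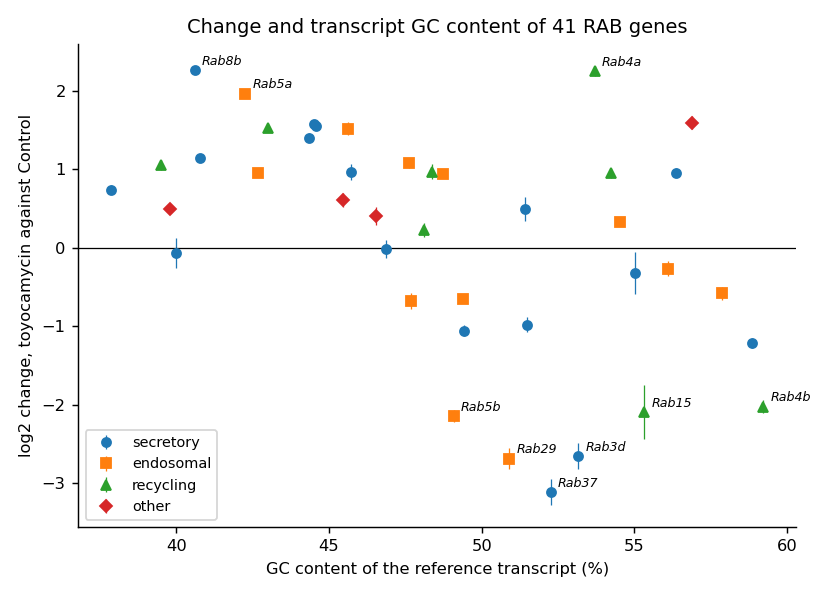
log2 change, with its SE, of the 41 RAB genes with a mean of at least 50 against the GC content of their reference transcript in percent, by role. Genes under 45% lie at or above 0 apart from Rab39b at −0.07, and the 13 lower genes lie at 47.7% or more.

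Genes that control the RAB cycle were taken from a list of 164 genes, of which 161 were tested. Of these 56 were higher, 71 lower and 34 did not pass, that is, 34.8% higher and 44.1% lower against 32.8% and 33.1% of all genes. With equal totals 36 were higher and 98 lower, where 24.9% and 42.5% of all genes were. The list's median log2 change was −0.14.

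In the lipid modification and extraction of RAB proteins, 5 of 8 genes were higher and 2 lower. These are 62.5% and 25%, against 32.8% and 33.1% of all genes. The subunits of the geranylgeranyl transferase moved apart, with Rabggtb up 2.02-fold from 1364 ± 75.04 to 2749 ± 76.04 and Rabggta down 2.00-fold from 706.1 ± 34.1 to 353.2 ± 16.4. Gdi2, a dissociation inhibitor that takes RAB proteins off membranes, rose 1.21-fold from 11322 ± 340 to 13657 ± 544. Rabif, a chaperone of RAB proteins without nucleotide, rose 1.76-fold from 1059 ± 34.3. The escort protein genes Chm and Chml rose 1.26-fold and 1.43-fold, but the change of Chml (log2 change 0.51) was −0.04 after GC and length correction. Its call also ended with equal totals (0.17, limma adjusted p = 0.25). The log2 changes of Gdi2 (0.27) and Chm (0.33) are smaller in size than the median of all genes with equal totals (−0.36). Their values on that scale are not given here. Rabac1 was at 1440 ± 75.7 and 1424 ± 58.8 and did not pass.

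Of 52 exchange factor genes 15 were higher and 25 lower (28.85% and 48.08%, against 32.8% and 33.1% of all genes). Ric1, part of the exchange factor of RAB6, rose 4.97-fold from 1054 ± 61.7 to 5237 ± 340, and the RAB10 exchange factors Dennd4a and Dennd4c rose 3.66-fold and 3.35-fold. Dennd1c went from 4927 ± 272 to 535.4 ± 22.1, a 9.20-fold fall (log2 change −3.20, SE 0.066, limma adjusted p = 3.62e-19). The most negative RAB change, that of Rab37 (−3.11, SE 0.16), did not differ from it beyond its error. Dennd2d, an exchange factor of RAB9, fell 6.43-fold and Hps1, part of that of RAB32 and RAB38, 4.96-fold from 1009 ± 61.9.

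Of 39 genes of GTPase-activating proteins 13 were higher and 20 lower (33.3% and 51.3%, against 32.8% and 33.1% of all genes). Evi5, which acts on RAB11, rose 7.05-fold from 282.4 ± 33.5 to 1990 ± 95.8, Tbc1d12 4.54-fold, and Tbc1d15, which acts on RAB7, 3.55-fold from 2104 ± 61.1. Tbc1d9b fell 6.72-fold from 7385 ± 316 to 1099 ± 44.4, Tbc1d24 4.95-fold and Tbc1d5, which acts on RAB7 with the retromer, 4.71-fold.

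Of 62 tested effector genes 23 were higher and 24 lower (37.1% and 38.7%, against 32.8% and 33.1% of all genes). Rab11fip1, which links RAB11 to its motors, rose 5.10-fold from 1688 ± 133 to 8606 ± 308, Rbsn, an effector of RAB4 and RAB5, 2.48-fold and the motor adaptor gene Spag9 2.28-fold. Unc13d, which encodes the granule-priming protein Munc13-4, fell 5.13-fold from 4088 ± 34.7 to 797.3 ± 47.4. Rims2, an effector of RAB3, fell from 161.2 ± 19.7 to 22.65 ± 14.3 and Rab11fip4 3.83-fold. RAB11 effectors were thus found on both sides.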

How the data were processed

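RNA sequencing covered 6 samples of cultured mouse ILC2s, 3 Control and 3 toyocamycin, grouped by their labels. No label says that replicates came from separate cultures or animals; the p-values therefore reflect the spread among the 6 libraries alone, possibly a technical one. The submitters' processing notes name cutadapt 4.7, FastQC and mm10; the sources used here do not give the aligner, counting program or strand setting. Although the table's name says FPKM, every deposited value is a whole multiple of 1 step per sample (100% whole within 0.01 reads), so the authors' values are a signal of reads divided by 1 size factor per sample. RNA was isolated with TRIzol, per the labels' protocols.

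Values were tested as log2(value + 1), for genes averaging at least 1, by limma's two-sided test (version 3.58.1 in R 4.3.3, with a mean-variance trend); p-values were Benjamini-Hochberg adjusted across 16223 genes, with a threshold of 0.05; the pseudocount understates changes of low genes. Folds are ratios of group means. Alternatives were edgeR 4.0.16 and DESeq2 1.42.0 on the recovered reads, other pseudocounts, filters and scalings, a replicate block, leaving out each sample, and, added after seeing the data, a loess correction for transcript GC content and length. The limma and edgeR scripts were tested on simulated data. Replicates differed beyond sampling noise in every pair, with 3.87 to 7.39 as the chi-square statistic over its degrees of freedom. Precision at low levels is limited by depth, and floors of 3 reads cover counting error only. Reference transcripts (APPRIS principal, then longest coding), exon overlaps and 50-base stretches shared with other genes came from GENCODE M21 (GRCm38), where all 58 RAB genes and 90.8% of the genes were found. Members, roles and lists were chosen with earlier results of these data known. In each role the 5 called genes with the largest change, every gene that did not pass and the 5 most abundant were named; in each list of regulators, up to 3 higher and 3 lower genes with a mean of at least 50. The values of 1 regulator that this rule names are not reported here.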

Additional observations from a re-analysis of the deposited data

How the results depend on the processing

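Every one of the 38 RAB calls held with pseudocounts of 0.5 and 4, without a filter, with a mean of at least 10, by DESeq2 and with the replicate block, which gave 5272 higher and 5298 lower genes in all. Same-numbered samples did not deviate together (correlations −0.041 to 0.023), so that block pairs samples by number only. Of the 38 calls 37 held by edgeR, 36 to 38 with 1 sample left out, 35 with quantile normalization (1 turned around), 34 with equal totals and 33 after GC and length correction. With equal totals, secretory genes called lower were 8 in place of 5 and regulators called higher 36 in place of 56, and after GC and length correction 2 in place of 4 other RAB genes were higher. Direction turned for Rab5c (−0.018 with equal totals, −0.17 with quantile normalization), Rab11b (−0.12 with equal totals) and Rab18 (−0.061) and Chml (−0.035) after GC and length correction. Among genes that did not pass it turned with quantile normalization for Rab3a (0.17), Rab39b (0.49) and Rab2b (0.30). With 1 sample left out the range was −0.68 to 0.19 for Rab13, −0.88 to 0.0063 for Rab7b, −0.18 to 0.076 for Rab39b, −0.103 to 0.085 for Rab2b, and −0.63 to 0.30 for the shift of the Rab32 to Rab38 ratio. Without mitochondrial and ribosomal RNA genes the share of reads in Control and toyocamycin was 0.369% and 0.618% for RAB genes, 0.184% and 0.387% for secretory, 0.117% and 0.123% for endosomal, 0.0484% and 0.0831% for recycling genes, and 0.0248% for other genes with toyocamycin. The cause of these differences was not tested. At means near 3 reads per library, small changes of RAB genes are not detectable at this depth.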
